A study of Mus musculus with 6 samples.

Results

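The proteasome subunit genes are the mouse genes whose symbols start with Psma, Psmb, Psmc, Psmd, Psme, Psmf or Psmg followed by a digit, without the 3 immunoproteasome catalytic subunits Psmb8, Psmb9 and Psmb10. The rule uses names only, and it found 46 of the 23420 genes in the deposited table. A test was made for genes with at least 10 counts in at least 3 libraries, which 45 of the 46 and 12713 of all genes passed. Total RNA was sequenced from LSK cells (marrow cells sorted as Lineage- Sca-1+ c-Kit+, a fraction rich in stem and multipotent progenitor cells) of 6 mice, 3 labelled bcat(ex3)osb and 3 labelled WT, with 1 library per mouse. The name bcat(ex3)osb is read here as an exon 3 allele of beta-catenin, a change known to stabilise the protein, in osteoblasts, which make bone. The sources used here do not give the promoter that drives the recombination, the strain, the age or any treatment. Read so, the allele was not directed at the LSK cells themselves, and the level of beta-catenin RNA in them checks no label: Ctnnb1 lay between 264 and 323 CPM (counts scaled to library size) in the bcat(ex3)osb libraries and between 263 and 473 CPM in the WT libraries. The question the comparison addresses is whether proteasome genes differed in LSK cells between the bcat(ex3)osb and WT mice.

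The proteasome is the barrel-shaped protease that degrades proteins tagged with ubiquitin. Its 20S core is built of alpha and beta rings, and 3 of the beta subunits cut peptide bonds. The 19S cap recognises ubiquitin, unfolds the substrate with a ring of ATPases and feeds it into the core. Dedicated chaperones assemble core and cap, other regulators bind the core in place of the cap, and interferon induces the immunoproteasome catalytic subunits, which blood cells also express at rest. When proteasome activity falls, the transcription factor NRF1 (gene Nfe2l1) raises the subunit genes together.

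Promoters of 3 genes are shown because the catalytic comparison and the known regulators bear on them: the catalytic subunit Psmb5, the cap subunit Psmd12, and the immunoproteasome subunit Psmb8 as the contrast. Each sequence is the 250 bases before the RefSeq start (GRCm38.p6), written 5′ to 3′ on the strand of the gene. Capitals mark TGACNNNGC in Psmb5 (the pattern of the antioxidant response element that NRF1 can bind), the same pattern on the opposite strand and CCGGAAG on the opposite strand (the ETS core) in Psmd12, and TTCNNNGAA in Psmb8 (the pattern STAT factors bind).
Psmb5 (chr14:54617996-54618245, minus strand): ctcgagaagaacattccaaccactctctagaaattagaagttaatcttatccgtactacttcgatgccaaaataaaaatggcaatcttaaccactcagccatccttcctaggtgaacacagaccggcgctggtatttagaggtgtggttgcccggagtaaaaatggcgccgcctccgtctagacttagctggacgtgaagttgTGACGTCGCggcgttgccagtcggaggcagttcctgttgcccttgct
Psmd12 (chr11:107479278-107479527, plus strand): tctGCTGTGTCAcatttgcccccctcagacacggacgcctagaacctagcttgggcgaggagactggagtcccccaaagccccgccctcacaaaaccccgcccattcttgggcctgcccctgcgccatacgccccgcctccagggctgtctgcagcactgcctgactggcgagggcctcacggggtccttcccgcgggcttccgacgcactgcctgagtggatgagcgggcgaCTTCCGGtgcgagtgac
Psmb8 (chr17:34197945-34198194, plus strand): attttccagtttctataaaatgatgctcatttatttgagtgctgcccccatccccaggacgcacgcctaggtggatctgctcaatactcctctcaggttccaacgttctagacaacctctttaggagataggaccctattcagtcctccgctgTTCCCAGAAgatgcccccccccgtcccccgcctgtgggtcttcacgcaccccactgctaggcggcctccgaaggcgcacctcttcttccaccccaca
The TGACNNNGC match began 47 bases before the start in Psmb5. The TTCNNNGAA match of Psmb8 began 97 bases before its start.

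A promoter entry was found for 37 of the 45 tested members, and both strands of the 250 bases were searched. TGACNNNGC was present in 5 of the 37, or 13.5%, against 14.4% of the promoters of all tested genes. The 5 genes were Psmb5, Psmb6, Psmc6, Psmd9 and Psmd12. CCGGAAG was present in 13 of the 37, or 35.1%, against 15.8% of the promoters of tested genes. CCAAT, the box bound by NF-Y, was also present in 13, or 35.1%, against 40.5%. TTCNNNGAA was present in 1, or 2.70%, against 7.22%. The match of Psmb6 began 9 bases before its listed start, but the RefSeq gene span begins further upstream, and the match lies inside it. In 10 of the 37 genes, Psmb6 included, the searched window reached into the RefSeq gene span, and 3 genes with more than 1 listed start were counted if either window matched. In 2 places matches to different motifs overlapped. These are descriptions of letters, not of bound sites, and short genes and housekeeping genes were not matched for. Entries were not found for Psmb1, Psmb2, Psmb7, Psma8, Psmc3, Psmd3, Psmd7 and Psmg2.

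Of the whole data, library totals ran from 17191996 to 18678599 counts for the bcat(ex3)osb mice and from 15431235 to 19956774 for the WT mice. Counts of Xist and of Y-linked genes showed bcat(ex3)osb mice 1 and 2 to be male, and bcat(ex3)osb mouse 3 and the 3 WT mice to be female, so sex and genotype cannot be fully told apart. The bcat(ex3)osb mouse 2 library stood apart on the first principal component, at 110 against -49.9 to -5.16 for the other 5. All 8 LSK markers were present, 7 of them negative in sign, with summed levels of 2760 to 3460 CPM in bcat(ex3)osb and 2700 to 4390 CPM in WT libraries. Of the 8, 2 were lower at an unadjusted p under 0.05 in edgeR, against 3.13% of all genes. These were Procr and Ly6a, which encodes the sort marker Sca-1, at log2 fold changes of -0.63 and -1.06. All 8 granulocyte-monocyte markers, such as Mpo and Elane, were higher at an unadjusted p under 0.05, against 3.42% of all genes. Their sums were 6350 to 11500 CPM in bcat(ex3)osb and 1280 to 3170 CPM in WT libraries. All 8 B cell markers were lower in sign. B cell sums were 541, 94.3 and 70.6 CPM in the bcat(ex3)osb libraries and 548, 894 and 948 CPM in the WT libraries, so that mouse 1 of bcat(ex3)osb lay just under the WT range and mice 2 and 3 far below it. In bulk RNA, fewer cells of a type and less RNA per cell cannot be told apart. The part of these markers in the values below was not tested.

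No proteasome subunit gene passed the test between the genotypes. With edgeR's quasi-likelihood test and Benjamini-Hochberg adjustment over all 12713 genes, 0 of the 45 members passed an adjusted p of 0.05, and the lowest adjusted p was 0.866. The background in that test was 0% in either direction. At an unadjusted p under 0.05 there were again 0 members, against 3.42% of all genes higher and 3.13% lower in the bcat(ex3)osb libraries. DESeq2 and limma-voom also called 0 members, where DESeq2 called 0.81% of all genes higher and 0.543% lower. In 0 of the 45 did the 3 bcat(ex3)osb values separate from the 3 WT values, against 6.87% of all genes with every bcat(ex3)osb value above, 7.67% with every one below, and 14.5% in either direction.

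The differences that were measured were small and mostly positive. The log2 fold change (bcat(ex3)osb over WT) was positive in 37 members and negative in 8, against 50.2% positive over all genes. Its median was 0.12, against 0.00 over all genes, and it ran from -0.20 for Psmd2 to 0.46 for Psmg3. The 95% intervals lay within -1 and 1 in 36 of the 45, so that a 2-fold change either way falls outside the interval of those genes, and over all 45 the bounds reached from -1.04 to 1.42. Without the bcat(ex3)osb mouse 2 library the median was -0.08 and 14 members were positive, and without WT mouse 1 it was 0.00 with 24 positive. With sex as a covariate it was -0.08 with 13 positive. Only bcat(ex3)osb mouse 3 shares its sex with the WT mice, so that fit compares this 1 mouse with WT. It cannot show what an adjustment of the whole group for sex would give. The sign of the group's median thus depended on which libraries carried the comparison.

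**Figure D1:**
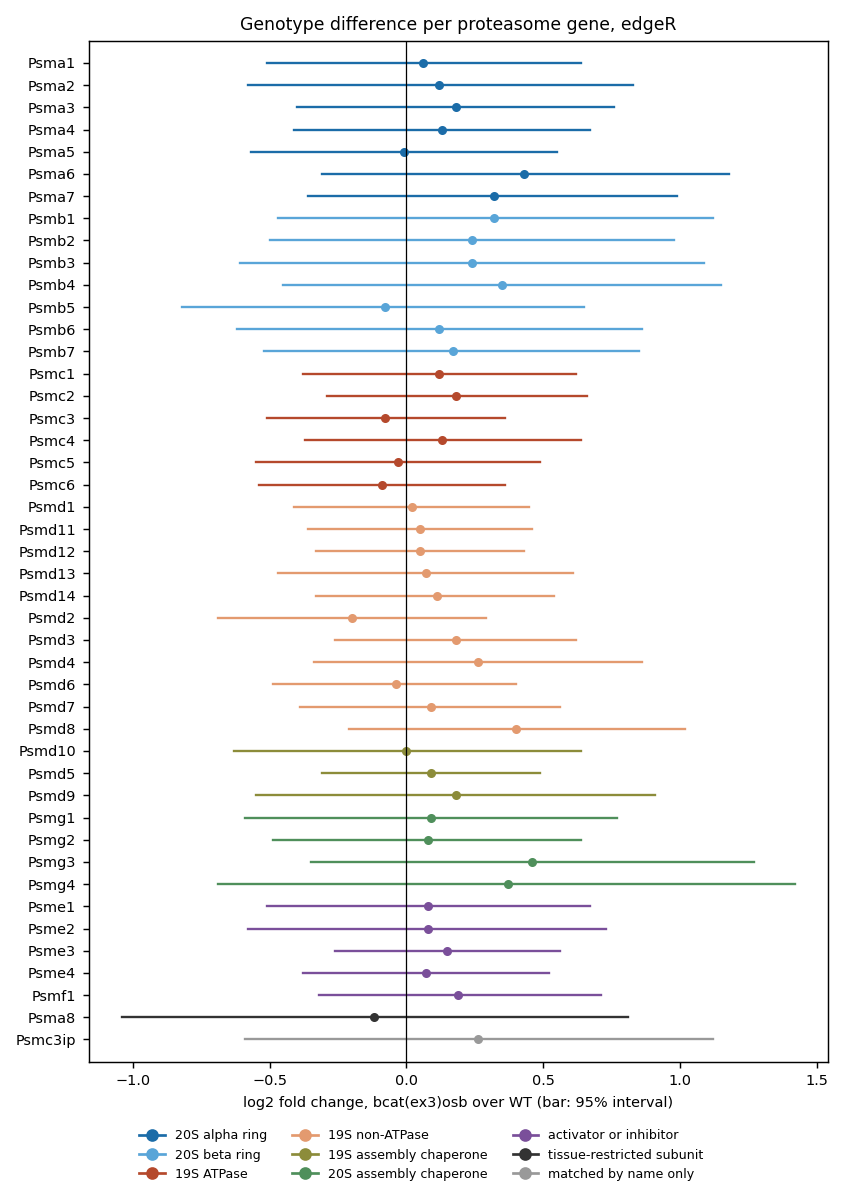
Log2 fold change (horizontal axis, bcat(ex3)osb over WT, points) with its 95% interval (bars) for the 45 tested proteasome genes, coloured by role, from edgeR with 3 libraries per genotype. Every bar crosses 0, and the points run from -0.20 to 0.46.

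The 7 alpha ring genes, which form the outer rings and the gate of the core, were all abundant. Their mean level in WT libraries ran from 136 FPKM (fragments per kilobase and library size, a level per length) for Psma3 to 509 FPKM for Psma7, the most abundant member of all. The log2 fold change was positive in 6 of the 7, with a median of 0.13. Psma6 had 325, 610 and 309 CPM in the bcat(ex3)osb libraries 1, 2 and 3, against 233, 401 and 287 CPM in the WT libraries. Only bcat(ex3)osb mouse 2 lay above every WT value. The log2 fold change was 0.43 ± 0.32 (SE; adjusted p = 0.876, edgeR). Psma7 had 454, 763 and 421 CPM in bcat(ex3)osb and 345, 561 and 409 CPM in WT libraries, with a log2 fold change of 0.32 ± 0.29 (SE; adjusted p = 0.898, edgeR). Psma1 had 372, 538 and 363 CPM in bcat(ex3)osb and 323, 509 and 385 CPM in WT libraries, with a log2 fold change of 0.06 ± 0.25 (SE; adjusted p = 0.977, edgeR). In each of these 3 genes mouse 2 was the highest library of its genotype. Psma5 was the alpha gene with the smallest difference, at -0.01 ± 0.24 (SE).

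Of the 7 beta ring genes, Psmb5, Psmb6 and Psmb7 encode the chymotrypsin-like, caspase-like and trypsin-like sites, and the other 4 are structural. Psmb5, the site most inhibited by bortezomib, had 70.2, 125 and 88.5 CPM in bcat(ex3)osb and 70.2, 142 and 88.8 CPM in WT libraries. The groups covered nearly the same range, and the log2 fold change was -0.08 ± 0.32 (SE; 95% interval -0.82 to 0.65; adjusted p = 0.977, edgeR). Psmb6 had 341, 590 and 327 CPM in bcat(ex3)osb and 283, 535 and 338 CPM in WT libraries, at 0.12 ± 0.32 (adjusted p = 0.965, edgeR). Psmb7 had 118, 173 and 108 CPM in bcat(ex3)osb and 83.5, 165 and 109 CPM in WT libraries, at 0.17 ± 0.30 (adjusted p = 0.940, edgeR). None of the 3 catalytic genes differed by more than its spread between mice. Among the structural subunits, Psmb4 had 183, 342 and 164 CPM in bcat(ex3)osb and 128, 245 and 167 CPM in WT libraries, and Psmb1 had 295, 557 and 253 CPM in bcat(ex3)osb and 220, 389 and 274 CPM in WT libraries. Their log2 fold changes were 0.35 ± 0.35 and 0.32 ± 0.34 (SE; adjusted p = 0.906 and 0.908, edgeR). In both, bcat(ex3)osb mice 1 and 3 lay inside the WT range, and only mouse 2 lay above it. The beta ring's median was 0.24 and 6 of the 7 were positive.

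**Figure D2:**
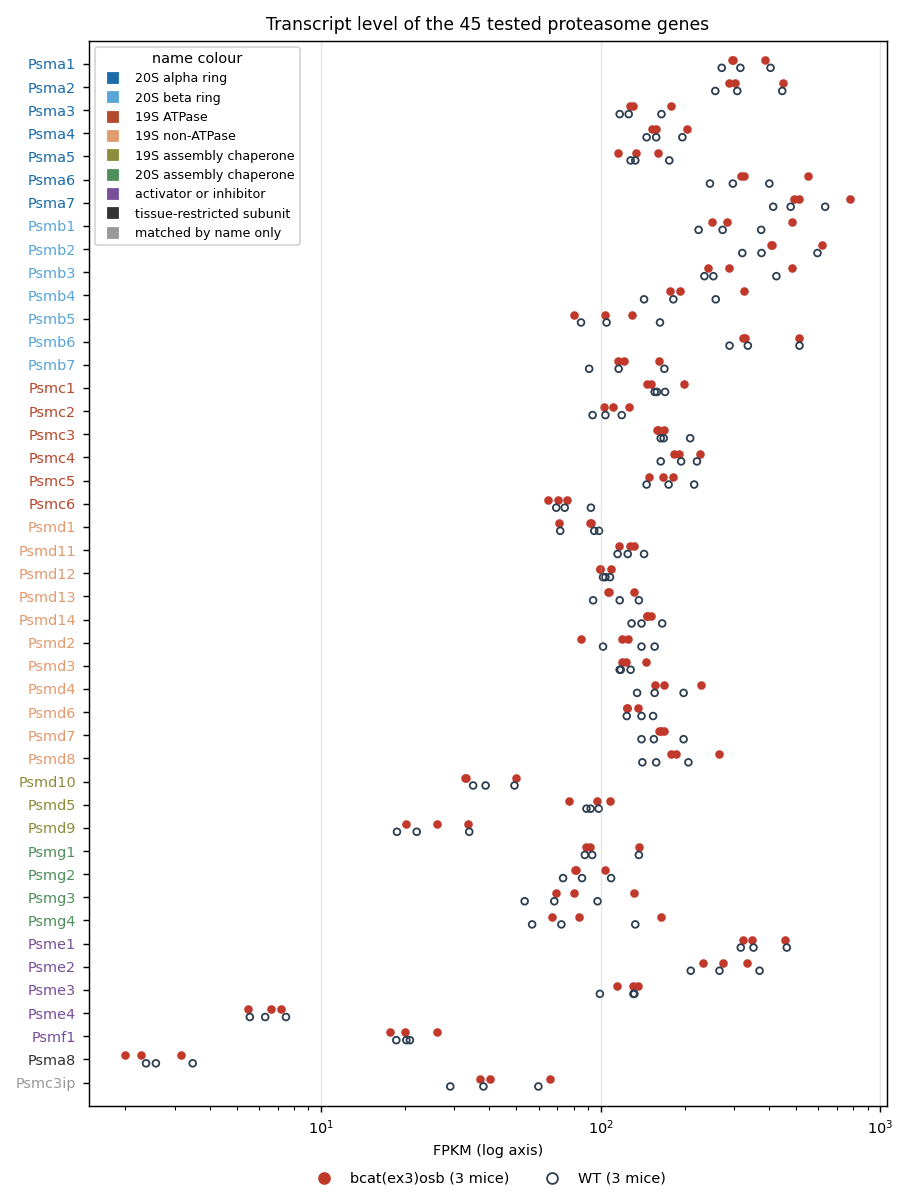
Level in FPKM (horizontal log axis) of the 45 tested genes in each of the 3 bcat(ex3)osb libraries (filled) and the 3 WT libraries (open), with gene names coloured by role. The groups overlap in every row, and Psma7 is the most abundant member at a WT mean of 509 FPKM.

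The 6 cap ATPases, Psmc1 to Psmc6, form the ring that unfolds substrates. Their log2 fold changes ran from -0.09 for Psmc6 to 0.18 for Psmc2, 3 positive and 3 negative. Psmc2 had 184, 249 and 192 CPM in bcat(ex3)osb and 158, 213 and 180 CPM in WT libraries (0.18 ± 0.21, SE; adjusted p = 0.911, edgeR). Psmc1 had 227, 329 and 212 CPM in bcat(ex3)osb and 225, 254 and 226 CPM in WT libraries, and only mouse 2 lay above the WT range (0.12 ± 0.22, SE; adjusted p = 0.938, edgeR). Psmc4 had 273, 360 and 256 CPM in bcat(ex3)osb and 224, 319 and 270 CPM in WT libraries, at 0.13 ± 0.22 (adjusted p = 0.938, edgeR). Psmc6 was the least abundant of the 31 core and cap genes that the rule took in, at 78.7 ± 12.0 FPKM in WT libraries (SD, n = 3). Across those 31 genes the WT mean spanned 6.47-fold.

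Among the 11 non-ATPase cap genes, Psmd8, a lid subunit on chromosome 7 (mm10), had the lowest p of all members. It had 282, 442 and 263 CPM in bcat(ex3)osb and 202, 312 and 231 CPM in WT libraries. All 3 bcat(ex3)osb values were above WT mice 1 and 3, and those of mice 1 and 3 were below WT mouse 2. The log2 fold change was 0.40 ± 0.27 (SE; 95% interval -0.21 to 1.02; adjusted p = 0.866, edgeR), and 0.13 ± 0.23 without bcat(ex3)osb mouse 2. With mouse 2 of both genotypes left out, a comparison chosen after the values were seen, it was 0.32 ± 0.13 with an adjusted p of 0.43 in edgeR. The unadjusted p of 0.0439 there stands against 5.41% of all genes higher at that level. Psmd4, a ubiquitin receptor, had 196, 317 and 205 CPM in bcat(ex3)osb and 160, 249 and 190 CPM in WT libraries, at 0.26 ± 0.26 (adjusted p = 0.906, edgeR). Psmd14, the deubiquitinase of the lid, had 226, 251 and 226 CPM in bcat(ex3)osb and 188, 256 and 209 CPM in WT libraries, at 0.11 ± 0.19.

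The large scaffold subunits of the cap base had another pattern over the libraries. Psmd1 had 300, 256 and 293 CPM in bcat(ex3)osb and 304, 234 and 300 CPM in WT libraries, and Psmd2 had 364, 288 and 372 CPM in bcat(ex3)osb and 451, 311 and 415 CPM in WT libraries. In both genes mouse 2 was the lowest of its genotype, where it was the highest in most other members. The pattern was not particular to scaffold subunits. It also held for the long activator genes Psme3 and Psme4, at 2619 and 6442 bases. The log2 fold changes were 0.02 ± 0.19 for Psmd1 and -0.20 ± 0.21 for Psmd2 (SE; adjusted p = 0.990 and 0.908, edgeR). Psmd12 was the steadiest of the class, at 167 to 189 CPM in bcat(ex3)osb and 170 to 181 CPM in WT libraries.

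The 4 core chaperones had a median WT level of 88.4 FPKM, against 315 FPKM for the alpha ring and 290 FPKM for the beta ring. The 3 cap chaperones had a median of 41.0 FPKM, against 170 FPKM for the cap ATPases, though Psmd5 at 93.2 FPKM was above Psmc6 at 78.7 FPKM. Psmg3, a core chaperone, had 68.0, 123 and 56.7 CPM in bcat(ex3)osb and 42.5, 82.1 and 55.6 CPM in WT libraries. Its log2 fold change of 0.46 ± 0.35 (SE; adjusted p = 0.876, edgeR) was the highest of all members. Psmg4 had 45.4, 98.6 and 35.3 CPM in bcat(ex3)osb and 29.1, 72.1 and 38.0 CPM in WT libraries, at 0.37 ± 0.46 (adjusted p = 0.919, edgeR). At 541 bases it is the shortest tested member, and its SE was above the members' median of 0.25. Of the cap chaperones, the X-linked Psmd10 (gankyrin) had 48.5, 80.3 and 46.5 CPM in bcat(ex3)osb and 48.2, 71.9 and 54.7 CPM in WT libraries, at 0.00 ± 0.28 (adjusted p = 0.999, edgeR). Psmd5 and Psmd9 stood at 0.09 ± 0.17 and 0.18 ± 0.32 (SE; adjusted p = 0.948 and 0.938, edgeR).

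The regulators that bind the core in place of the cap, and its inhibitor, were all positive in sign with differences of 0.07 to 0.19. Psme1 and Psme2, the subunits of the interferon-inducible activator PA28, had 317, 494 and 331 CPM and 269, 363 and 221 CPM in the bcat(ex3)osb libraries, against 293, 453 and 334 CPM and 195, 363 and 252 CPM in the WT libraries. Both log2 fold changes were 0.08, with SEs of 0.25 and 0.29 (adjusted p = 0.972 and 0.977, edgeR). Psme3, the nuclear activator, varied little in bcat(ex3)osb libraries, at 331 to 346 CPM, and more in WT libraries, at 261 to 334 CPM (0.15 ± 0.18, SE; adjusted p = 0.915, edgeR). Psme4, which encodes the activator PA200, had 43.0, 39.2 and 45.1 CPM in bcat(ex3)osb and 45.8, 36.0 and 39.5 CPM in WT libraries (0.07 ± 0.20, SE; adjusted p = 0.967, edgeR). Psmf1, the inhibitor PI31, had 63.1, 102 and 69.1 CPM in bcat(ex3)osb and 69.8, 66.1 and 69.3 CPM in WT libraries. Its value in bcat(ex3)osb mouse 2 stood alone, and the log2 fold change was 0.19 ± 0.22 (SE; adjusted p = 0.914, edgeR).

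The rule also took in 3 genes outside the common particle. Psma8, the alpha subunit of the testis proteasome, had 3.74 to 5.21 CPM in bcat(ex3)osb and 3.89 to 5.92 CPM in WT libraries (-0.12 ± 0.40, SE; adjusted p = 0.974, edgeR). Psmb11, the beta subunit of the thymic cortex, had 0 counts in all 6 libraries, which at 3 counts per library allows up to 0.194 CPM in the shallowest. Psmc3ip matched by its symbol only, since it encodes a partner of meiotic recombinases, and its log2 fold change was 0.26 ± 0.37 (SE; adjusted p = 0.927, edgeR).

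The larger variation lay between mice within a genotype. Of the 45 members, 30 were highest in bcat(ex3)osb mouse 2 and 10 in WT mouse 2, while 34 were lowest in WT mouse 1. Summed over members, the level was 9115, 12770 and 8715 CPM in bcat(ex3)osb and 7812, 11170 and 8829 CPM in WT libraries, or 0.907%, 1.15% and 0.894% of counts in bcat(ex3)osb and 0.825%, 1.11% and 0.910% in WT libraries. Mouse 2 of each genotype was thus the highest of its group, and the bcat(ex3)osb and WT totals overlapped. Relative to the WT mean, the median member stood at 0.00, 0.47 and -0.06 log2 units in bcat(ex3)osb and at -0.27, 0.34 and -0.06 in WT libraries.

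This variation went with gene length over the members as a set, though not in every gene. All 27 members under 1500 bases were highest in mouse 2 of either genotype, against 13 of the 18 longer members. Among the longer members, Psmd9 at 2591 bases was highest in mouse 2 within each genotype. Psmf1 at 3542 bases was so in bcat(ex3)osb only. Over the 45 members, the correlation of a library's deviation from the WT mean with log10 length was 0.101, -0.661 and 0.587 in bcat(ex3)osb and 0.854, -0.843 and 0.587 in WT libraries. The WT values share the mean they are set against, and the members share their libraries, so these describe the 6 libraries and carry no test. Over all 12713 genes, the deviations were taken from the mean of all 6 libraries instead. Their correlation with log10 length was 0.129, -0.34 and 0.168 in bcat(ex3)osb and 0.363, -0.291 and 0.239 in WT libraries. The signs were the same as for the members, and the sizes are not comparable because the reference differs. The members' median length was 1296 bases, against 2809 for all tested genes. After a smooth trend with length was removed from each library, the members' median log2 fold change was 0.03, with 27 of 45 positive. Psmd8 was then the 1 member at an unadjusted p under 0.05 (0.32 ± 0.13; adjusted p = 0.453, edgeR), against 5.84% of all genes higher. The origin of the length trend was not tested.

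**Figure D3:**
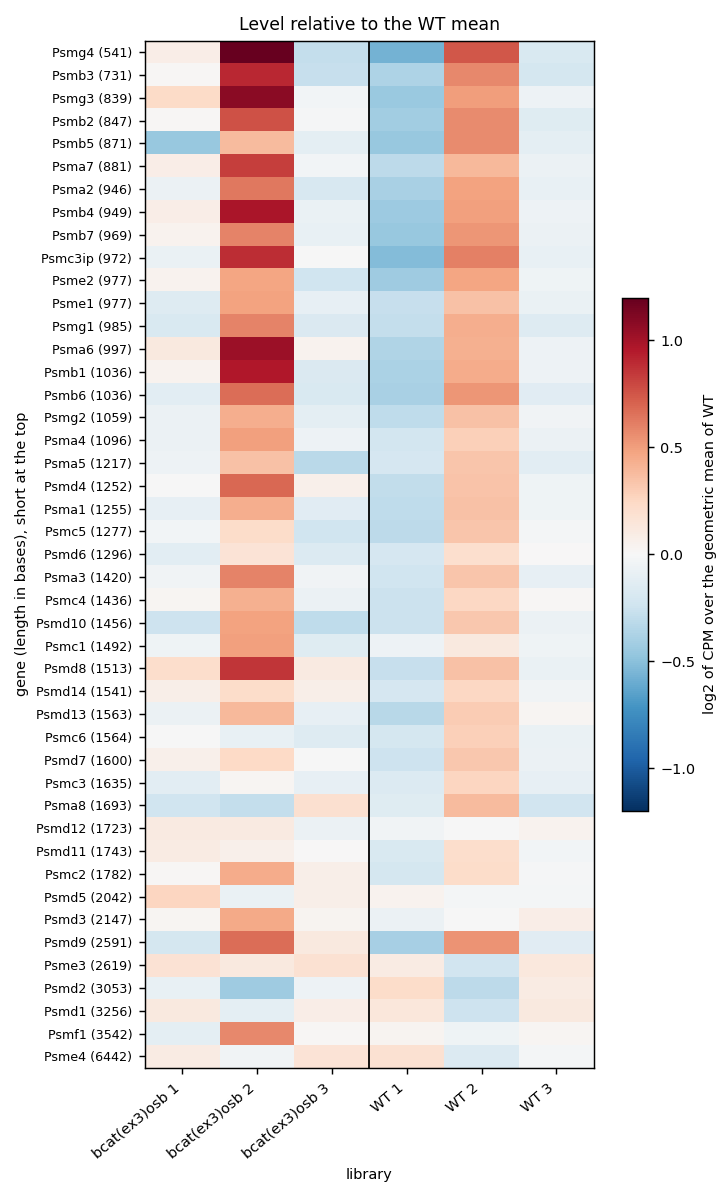
Each cell is the log2 of a gene's CPM over the geometric mean of the 3 WT libraries (colour), with genes from short to long down the page and the 3 bcat(ex3)osb libraries left of the 3 WT libraries. Mouse 2 of both genotypes is high for short genes, and the long Psmd1 and Psmd2 go the other way.

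The classes differed in how far they moved between mice. The beta ring's median member stood at 0.02, 0.77 and -0.12 log2 units in bcat(ex3)osb and at -0.41, 0.53 and -0.11 in WT libraries. The non-ATPase cap genes stood at 0.07, 0.22 and 0.01 in bcat(ex3)osb and at -0.20, 0.21 and 0.01 in WT libraries. The median gene length of those classes was 949 and 1600 bases. The summed FPKM of the 14 core genes over that of the 17 cap genes was 1.54, 2.13 and 1.5 in bcat(ex3)osb and 1.38, 1.88 and 1.48 in WT libraries. The genotypes overlapped in this ratio, and mouse 2 was the highest in each.

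**Figure D4:**
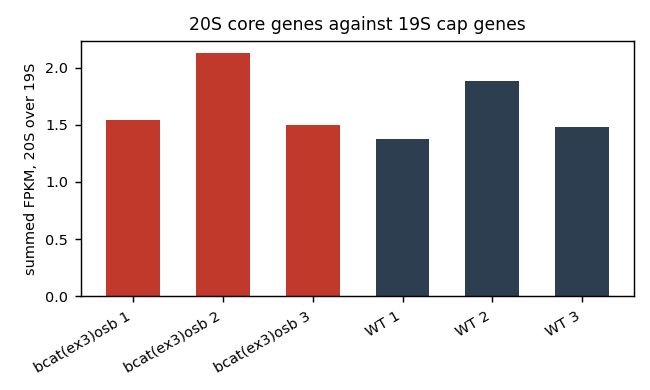
Summed FPKM of the 14 core genes divided by that of the 17 cap genes (vertical axis, a ratio) in each library. Mouse 2 is highest in both genotypes, at 2.13 in bcat(ex3)osb and 1.88 in WT, and the other 4 lie between 1.38 and 1.54.

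The balance of immunoproteasome to constitutive catalytic subunits was compared as 3 ratios of FPKM. Psmb8 to Psmb5 was 7.30, 4.17 and 4.51 in bcat(ex3)osb and 5.12, 4.81 and 4.82 in WT libraries, so the inducible chymotrypsin-like subunit was the more abundant RNA in all 6. Its mean was 5.33 ± 1.72 in bcat(ex3)osb and 4.92 ± 0.177 in WT libraries (SD, n = 3 each; exact two-sided permutation p = 1.0 on the log2 ratios). Psmb9 to Psmb6 was 0.798, 0.546 and 0.729 in bcat(ex3)osb and 0.785, 0.811 and 0.860 in WT libraries (exact permutation p = 0.2). Psmb10 to Psmb7 was 1.18, 1.14 and 1.22 in bcat(ex3)osb and 1.31, 1.17 and 1.24 in WT libraries (exact permutation p = 0.3). Adjusted over the 3 ratios, the p-values were 1.0, 0.45 and 0.45, and 3 mice against 3 cannot give less than 0.10. Of the 10 interferon response markers, all 10 were negative and 6 were lower at an unadjusted p under 0.05 (3.13% of all genes), with a median log2 fold change of -1.29. Relative to the WT mean, the median marker stood at -0.91, -2.89 and -0.80 log2 units in bcat(ex3)osb and at 0.18, -0.39 and 0.28 in WT libraries. The lowest library, bcat(ex3)osb mouse 2, also had the lowest value in all 3 ratios. It was the library that stood apart on the first principal component. WT mouse 2 was the lowest of its genotype in Psmb8 to Psmb5 and Psmb10 to Psmb7, but not in Psmb9 to Psmb6. Psmb8 and Psmb10 are longer than their counterparts, at 1223 against 871 bases and 1270 against 969 bases. Psmb9 is shorter than Psmb6, at 806 against 1036 bases. The interferon-inducible Psmb8, Psmb9 and Psmb10 stood at -0.04 ± 0.27, -0.19 ± 0.27 and 0.11 ± 0.27 (SE; adjusted p = 0.987, 0.931 and 0.961, edgeR). The parts of the interferon response and of the length trend in the ratios were not tested.

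**Figure D5:**
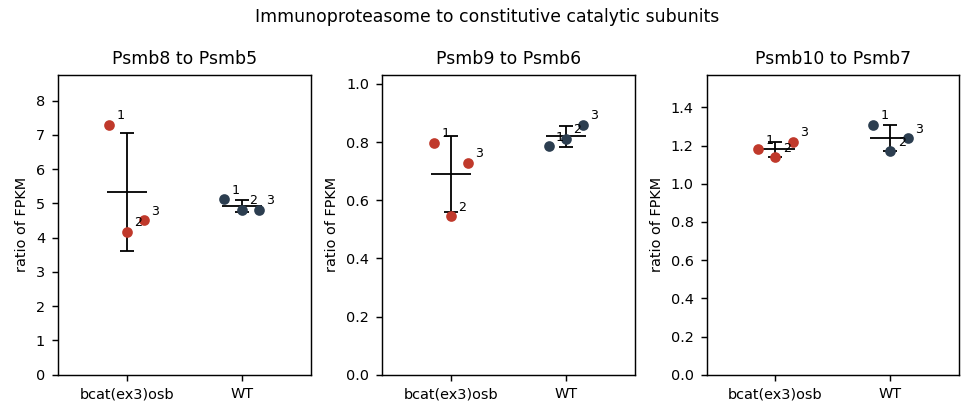
Ratio of FPKM of each immunoproteasome subunit to its constitutive counterpart (vertical axes from 0) in the numbered bcat(ex3)osb (left) and WT (right) mice, with mean and SD. The groups overlap in all 3 ratios, and bcat(ex3)osb mouse 1 is the highest for Psmb8 to Psmb5 at 7.30.

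No proteasome pathway gene outside the rule passed the test. The 33 genes were the 3 immunoproteasome subunits, other subunits and bound factors, NRF1 and its activators, shuttle factors, and ubiquitin with its activating enzymes. Of these, 0 passed the adjusted test in edgeR, against 0% of all genes in either direction. At an unadjusted p under 0.05 in edgeR 0 passed, against 3.42% of all genes higher and 3.13% lower. Signs were positive in 16 and negative in 17, against 50.2% positive over all genes, and the median log2 fold change was -0.01. Uchl5, a deubiquitinase bound to the cap, had 222, 313 and 253 CPM in bcat(ex3)osb and 155, 229 and 193 CPM in WT libraries (0.45 ± 0.22, SE; adjusted p = 0.787, edgeR). Adrm1, its docking site and a ubiquitin receptor, stood at 0.37 ± 0.23, and Usp14, the other cap-bound deubiquitinase, at 0.33 ± 0.19 (adjusted p = 0.854 and 0.815, edgeR). The shuttle factor Faf1 stood at -0.23 ± 0.19 (adjusted p = 0.889, edgeR). Pomp, the core maturation factor, stood at 0.04 ± 0.32 (adjusted p = 0.987, edgeR). Nfe2l1 had 107, 76.3 and 94.1 CPM in bcat(ex3)osb and 125, 55.8 and 98.9 CPM in WT libraries (-0.01 ± 0.30, SE; adjusted p = 0.996, edgeR). It was lowest in mouse 2 of each genotype, where most subunit genes were highest. Nfe2l1 is long, at 4867 bases. Over all tested genes, deviations in mouse 2 fell with log10 length, with r of -0.34 in bcat(ex3)osb and -0.291 in WT. A relation of Nfe2l1 to the subunit genes was not tested. Nfe2l2 was the 1 gene of the 33 whose groups did not overlap, against 14.5% of all genes, at 106, 103 and 95.8 CPM in bcat(ex3)osb and 115, 115 and 107 CPM in WT libraries.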

How the data were processed

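Counts per gene and FPKM values were deposited for each of the 6 mice. Per the labels' protocols, libraries were made with a stranded total RNA kit; the submitters' processing notes name mm10 with featureCounts 1.5.0-p3, STAR 2.5.2b and bcl2fastq 2.17. The sources used here give neither the strand setting of the counting nor its rule for multi-mapping reads, so reads shared with the 6 pseudogenes RefSeq lists for subunit genes are uncertain. The authors' deposited FPKM were checked against the deposited counts, scaled by gene length and library total. The largest gap was 0.005 FPKM, an absolute difference. Deposited counts were fitted with edgeR 4.0.16 (R 4.3.3; TMM scaling, quasi-likelihood F test, genotype only) for genes with at least 10 counts in at least 3 libraries, with Benjamini-Hochberg adjustment over all 12713. CPM are scaled by TMM. SE is the absolute log2 fold change over the root of F. Totals of 15431235 to 19956774 counts set the precision, and intervals at 0 counts cover counting error only. On simulated counts for this comparison (5 runs, 12713 genes, 200 changed), 13.6% of 2-fold and 83.6% of 4-fold changes were recovered, and 5.08% of calls were false. Replicates are mice, numbered in the labels. Members and lists were chosen with earlier results of these data known. Named with fold change, SE and adjusted p were, per role class, the 2 members with the lowest p, the catalytic and first subunits, Psmd1, Psmd10 and regulators, and of the pathway lists 6 fixed genes and the 4 others with the lowest p, of which 1 is not reported here. Nfe2l2, Psmd14, Psmd2, Psmd12 and Psma5 were named after their values were seen. Alternatives used other scalings, filters, DESeq2 1.42.0, limma 3.58.1 (voom, and log2 of FPKM plus 1 or 0.1), a replicate block, a length correction, sex as a covariate and libraries left out. Paaf1 and Psme2b were not analysed here.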

Additional observations from a re-analysis of the deposited data

How the results depend on the processing

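No member passed an adjusted p of 0.05 under any of the 19 alternatives. The count of calls over all genes, 0 in edgeR, was 172 with DESeq2, 5 with the mouse number as a replicate block, 1 with the length trend removed, and 0 to 13 with single libraries left out (13 without bcat(ex3)osb mouse 1, 2 without bcat(ex3)osb mouse 3). The members' median log2 fold change of 0.12 was -0.08 with sex as a covariate, a fit that compares bcat(ex3)osb mouse 3 alone with WT. It was -0.08 to 0.27 with single libraries left out, lowest without bcat(ex3)osb mouse 2 and highest without WT mouse 2. It was 0.04 on log2 of FPKM plus 1 or 0.1, with 28 positive, and 0.09 without mouse 2 of both genotypes, an alternative added after the data were seen. The cause was not tested. The Psmb8 to Psmb5 difference of 0.07 (log2) ran from -0.18 without bcat(ex3)osb mouse 1 to 0.22. Same-numbered mice deviated with r of 0.101, 0.34 and 0.0745, so the numbers were not taken as pairs, and bcat(ex3)osb mice 1 and 3 correlated best with another number; under the replicate block the members' median was 0.12, and 3 members were higher at an unadjusted p under 0.05 (Psmd8, Psma6 and Psmg3, with edgeR adjusted p of 0.303, 0.316 and 0.349), against 6.95% of all genes. Of 684 values of the 36 genes the naming rule gives under alternatives, 95, in 27 genes, changed sign, 0 were called, and the lowest adjusted p was 0.223 in the tools run. Depth limits Psma8 and Psmb11. With 3 mice per genotype, 13.6% of simulated 2-fold changes were recovered.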
